A study of Mus musculus with 24 samples.

Results

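Neat1, Malat1 and Meg3 are long noncoding RNAs, and their signals were followed in the choroid plexus of aged mice. The members were all probe sets whose single gene symbol in the platform annotation was one of these 3 genes, which gave 3 of the 12393 genes named on the array and 11 of its 22626 probe sets other than controls: 1 for Neat1, 5 for Malat1 and 5 for Meg3. They were chosen with their signals by genotype and diet in view, so differences by genotype and diet are given below as a description, without a test. The choice did not use sex, and differences by sex were tested.

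The study measured RNA on 24 Affymetrix Mouse430A_2 arrays, on which a probe set is a group of short probes for one transcript. The mice were of strain C57BL and 78 weeks old, and every group carried a humanized ApoE gene in place of its own, either the ApoE3-Knockin or the ApoE4-Knockin. Within each genotype, 6 arrays came from normal mouse chow (ND) and 6 from a high-fat diet (HFD), and in each of these 4 groups replicates 1 to 3 were male and 4 to 6 female. Tissue was collected from frozen sections by laser capture, which cuts out a chosen region under a microscope, and labelled RNA was made in a transcription reaction of 24 h. There was no group with the mouse's own ApoE gene, and no label says that the arrays were separate animals, so p-values measure only the spread between these arrays, whose number also limits the precision. In tissue of this kind, fewer cells of a type and less RNA per cell cannot be told apart.

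Neat1 is the scaffold of paraspeckles, nuclear bodies that assemble around its long isoform and hold a set of RNA-binding proteins. Malat1 is an abundant nuclear RNA concentrated in nuclear speckles, where splicing factors are stored, and like the long isoform of Neat1 it ends in a triple helix instead of a poly(A) tail. Meg3 is made from the maternal copy of the imprinted Dlk1-Dio3 region and is best known in brain from neurons.

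Malat1 and Neat1 are neighbours on mouse chromosome 19. In the RefSeq annotation of assembly GRCm38.p6 the genes follow each other in the order Malat1, Mascrna, Neat1, Frmd8 and Slc25a45, so that only Mascrna, the small RNA cut from the end of the Malat1 transcript, is listed between them. Meg3 is on chromosome 12. Promoters were matched by symbol in RefSeq (GRCm38.p6) for 2 of the 3 genes, Malat1 (chr19:5802623-5802922, minus strand) and Meg3 (chr12:109540746-109541045, plus strand), each running from 250 bases before the start of the gene to 50 bases after it. No Neat1 promoter was found by symbol, so none is shown. Whether these sequences bear on the signals was not tested. Capitals mark TGACG, the core of the cAMP response element, on either strand and, in Meg3, also TATAAA, the TATA box, on either strand.
Malat1: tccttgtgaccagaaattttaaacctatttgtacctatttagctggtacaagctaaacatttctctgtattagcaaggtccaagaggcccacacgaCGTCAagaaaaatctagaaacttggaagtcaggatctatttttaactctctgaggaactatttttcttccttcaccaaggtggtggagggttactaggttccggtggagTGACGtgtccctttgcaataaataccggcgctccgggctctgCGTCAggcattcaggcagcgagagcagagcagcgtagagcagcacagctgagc
Meg3: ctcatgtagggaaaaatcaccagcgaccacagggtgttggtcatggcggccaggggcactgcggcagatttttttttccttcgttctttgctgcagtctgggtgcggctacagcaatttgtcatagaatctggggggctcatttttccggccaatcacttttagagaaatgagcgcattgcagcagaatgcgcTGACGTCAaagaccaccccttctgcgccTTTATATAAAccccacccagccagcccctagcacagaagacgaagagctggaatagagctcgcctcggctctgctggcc
TGACG was found 3 times in the Malat1 promoter and 2 times in the Meg3 promoter shown, where both matches overlap in a palindrome. Of 32851 RefSeq promoters of this length, 20.8% hold it. The Meg3 promoter shown holds 2 overlapping matches of TATAAA, which 13.6% of promoters hold, and 1 of CCAAT, which 37.4% hold. The Malat1 promoter holds neither of these, but has 1 match of ACGTG, the core of the hypoxia response element, which overlaps a TGACG match and occurs in 19.6% of promoters. No match of CACGTG (7.15% of promoters), GGGCGG (35.7%), GAANNTTC (7.86%) or the interferon-stimulated response element (3.44%) was found in either window shown, which says only that these letters are not there. A second Meg3 entry with the same symbol (chr12:109545148-109545447, plus strand) does not lie at the start of the gene and is not shown. It held no match of any of these motifs, TGACG and TATAAA included.

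The laser-captured tissue carried the markers of choroid plexus epithelium: Ttr, the thyroid hormone carrier that this epithelium secretes, had signals from 13080 to 25450, and 0 of 13 measured epithelial markers were Absent on all 24 arrays. Other markers were weaker and moved with the groups. Neuron markers had a mean log2 signal of 7.39 ± 0.061 in ApoE3 high-fat (SD, n = 6), against 7.19 ± 0.16 in ApoE3 chow, 6.93 ± 0.19 in ApoE4 chow and 6.99 ± 0.24 in ApoE4 high-fat. Myelin markers followed the same order of groups at the top, with 8.75 ± 0.14, 8.39 ± 0.15, 8.21 ± 0.13 and 8.26 ± 0.23 in those 4 groups. Over all markers measured, 4 of 11 neuron, 5 of 7 myelin, 6 of 14 macrophage, 4 of 10 smooth muscle and pericyte, 2 of 10 astrocyte and 1 of 11 endothelial markers fell in ApoE4 on the high-fat diet, and 1 myelin marker rose, beside 1 of 13 epithelial markers in each direction (limma, adjusted p under 0.05). Over all 13936 probe sets kept, 26.4% passed in this comparison, 1444 higher and 2234 lower. The macrophage count was 3 without ApoE3 high-fat replicate 1 or 4 or ApoE4 high-fat replicate 5 or 6, and with 1 array left out the single endothelial and epithelial calls and the myelin marker that rose could each be lost. Absent on all 24 arrays were Camk2a, Syn1 and Nrgn of neurons, Mag and Olig2 of myelin-forming cells, Gfap and Slc1a2 of astrocytes, Itgam of macrophages, and Cnn1 and Lmod1 of smooth muscle. The hybridization controls, RNAs added to each sample before it meets the array, were lower in ApoE4 on both diets (11.31 ± 0.15 and 11.26 ± 0.31 against 11.65 ± 0.13 and 11.63 ± 0.092 in ApoE3 on chow and on the high-fat diet). The 4 arrays lowest in them were ApoE4 high-fat replicates 2, 5 and 6 and ApoE4 chow replicate 5. In ApoE3 and ApoE4 on the high-fat diet, the median signal of an array ran from 167.6 to 179.2 and from 141.45 to 159.7. On chow it ran from 153.1 to 181.55 and from 145.35 to 164.55. Probe sets Present on the high-fat diet made up 55.4% ± 1.8 and 59.0% ± 1.1. The 3′ to 5′ log2 ratio of Actb and Gapdh was 0.86 ± 0.18 and 0.73 ± 0.13 there. The cause of these differences was not tested.

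**Figure D1:**
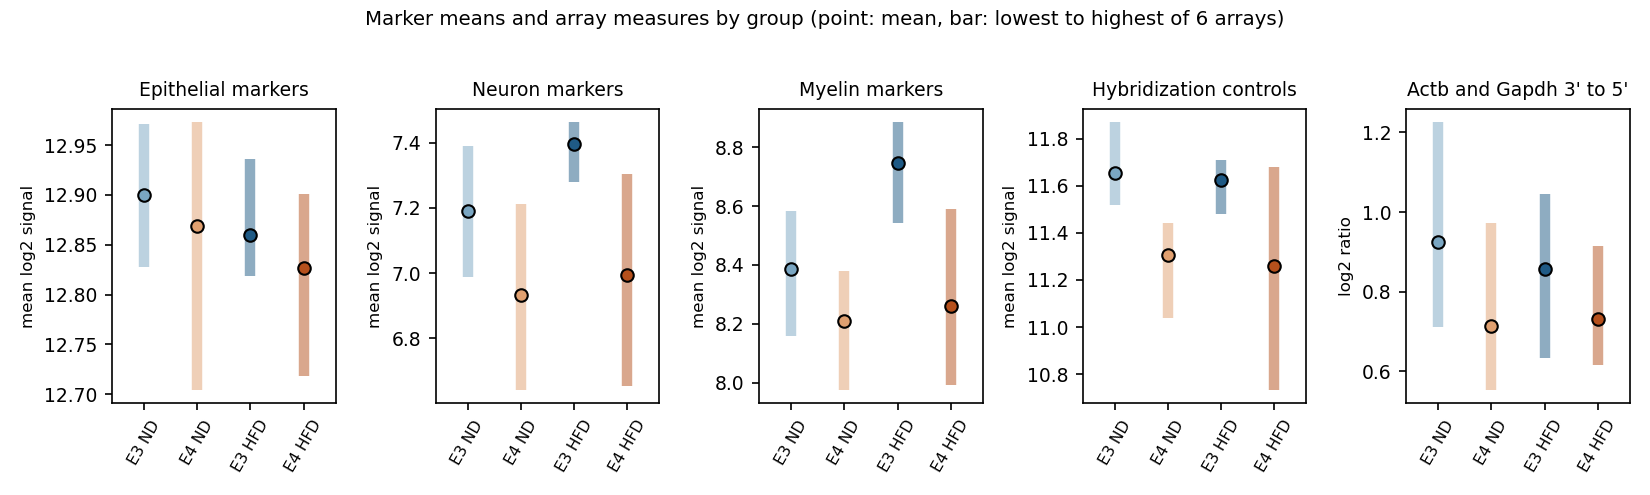
Mean log2 signal of the epithelial, neuron and myelin markers and of the hybridization controls, and the mean log2 ratio of the 3′ to the 5′ probe sets of Actb and Gapdh, in ApoE3 (E3) and ApoE4 (E4) on chow (ND) and the high-fat diet (HFD). Points are means and bars run from the lowest to the highest of 6 arrays; the neuron and myelin means are highest in E3 HFD (7.39 and 8.75), and the hybridization controls are lower in E4 on both diets. Axes do not start at 0.

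Detection differed among the 11 probe sets. Detection calls grade a probe set on each array as Present, Marginal or Absent. Neat1 has 1 probe set, 1428083_at, Present on all 24 arrays. For Malat1, 1418189_s_at was Present on 24 arrays, 1418188_a_at on 22, 1438403_s_at on 19, 1427285_s_at on 8 and 1452378_at on 1. For Meg3, 1439380_x_at was Present on 24 arrays, 1436713_s_at on 21, 1426758_s_at on 18, 1452183_a_at on 7 and 1436057_at on 2. Malat1 1452378_at and Meg3 1436057_at were not Present on at least 6 arrays and were left out of the fits, which leaves 9 probe sets. By the naming of the platform, the ending x marks probes that can match unrelated transcripts, and the endings s and a mark probes shared between transcripts of several genes or of one gene. Which Neat1 isoform its probe set reads was not analysed here.

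Neat1 was highest in ApoE3 on the high-fat diet, with signals from 1528.1 to 3565.3 and a median of 2464.6. In the other groups it ran from 1110.3 to 1817 (median 1454.4) in ApoE3 chow, from 1012.5 to 2662.2 (median 1464.6) in ApoE4 chow and from 881.1 to 1566.4 (median 1261.25) in ApoE4 high-fat. The ApoE4 high-fat arrays lay at the low end, and only the lowest ApoE3 high-fat array, female replicate 5, was inside their range. Within each sex the genotypes stood apart: the 3 male ApoE3 high-fat arrays read 3565.3, 3088.7 and 2348.7 against 1566.4, 1457.5 and 1464.5 in ApoE4, and the 3 female arrays read 2332.1, 1528.1 and 2580.5 against 1065, 902.1 and 881.1. Neither sex overlapped between the genotypes on this diet. Of all probe sets kept, 15.6% in males and 21.7% in females were likewise lower in ApoE4 without overlap.

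For Malat1, 1438403_s_at, its probe set with the highest mean, had the same group at the top and the same group at the bottom. Signals ran from 329.1 to 633.6 (median 574.5) in ApoE3 high-fat and from 85.8 to 419.1 (median 189.7) in ApoE4 high-fat, where 1 array was Absent and 2 were Marginal. On chow they ran from 195.9 to 525.4 (median 456.95) in ApoE3 and from 151.8 to 426.9 (median 299.55) in ApoE4. The genotypes overlapped on both diets, on the high-fat diet through ApoE4 male replicate 2 at 419.1, and each group spread over a wide range.

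The other Malat1 probe sets kept the high-fat order. Malat1 1418189_s_at ran from 204.7 to 762.9 (median 471.05) in ApoE3 high-fat and from 52.8 to 217.3 (median 91.3) in ApoE4 high-fat, with chow medians of 220.1 in ApoE3 and 190.05 in ApoE4. Malat1 1418188_a_at ran from 122.2 to 210.7 in ApoE3 high-fat and from 44.5 to 103.1 in ApoE4 high-fat, without overlap. The dimmer 1427285_s_at ran from 51.8 to 82.1 and from 15.6 to 60.2 in these groups, and most of its arrays were Absent. Malat1 1452378_at, Absent on 21 of 24 arrays, had means of 84.3 ± 37.4 and 63.5 ± 14.0 there (SD, n = 6), within each other's spread.

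For the brightest Meg3 probe set the ApoE3 high-fat group stood clear of the rest. This probe set, 1439380_x_at, ran from 1513.5 to 2460.3 (median 1866.25) in ApoE3 high-fat, from 892.3 to 1375.6 (median 1053.65) in ApoE3 chow, from 715.1 to 1419.9 (median 933.7) in ApoE4 high-fat and from 693.6 to 1060.9 (median 880.35) in ApoE4 chow. All 6 ApoE3 high-fat arrays therefore lay above all 18 others, and the other 3 groups overlapped one another. The share of all probe sets with a group above all other arrays was not counted, and these signals chose the members. Within ApoE3 high-fat the females read 2460.3, 2312.2 and 2050.1 and the males 1513.5, 1652.5 and 1682.4. The sexes did not overlap in this group, and the share of all probe sets without overlap by sex was not counted.

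The dimmer Meg3 probe sets put ApoE3 high-fat at the top as well. In ApoE3 and ApoE4 on this diet, 1452183_a_at ran from 290.5 to 513.3 and from 189.5 to 261.6, 1426758_s_at from 193.7 to 304.8 and from 133.7 to 191.8, and 1436713_s_at from 51.0 to 69.6 and from 20.9 to 45.4. None of these 3 overlapped between the genotypes on this diet, while in ApoE3 all 3 overlapped between the diets. Meg3 1452183_a_at was Absent on all 6 ApoE3 chow arrays, where its mean signal was 271.9 ± 52.9 (SD, n = 6), so no fold is given against that group. Meg3 1436057_at, Absent on 22 of 24 arrays, had means of 131.8 ± 24.6 and 85.6 ± 30.2 in ApoE3 and ApoE4 on the high-fat diet.

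**Figure D2:**
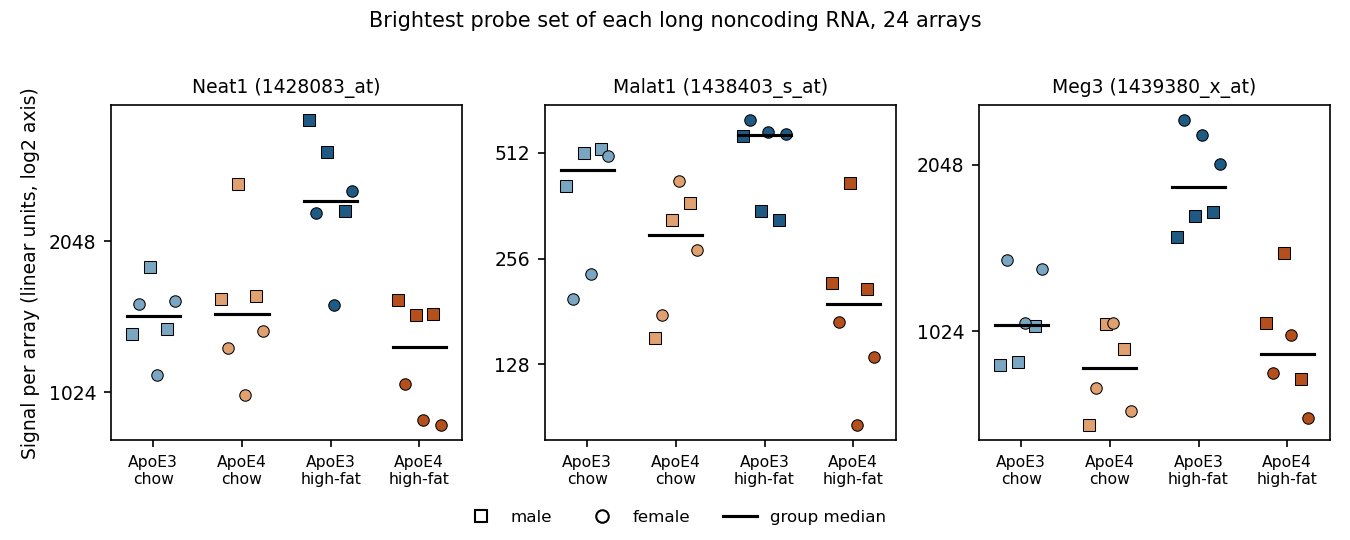
Signal per array (linear units on a log2 axis) of the probe set with the highest mean signal for Neat1, Malat1 and Meg3 in the 4 groups of 6 arrays. Squares are males, circles are females and lines are group medians; the ApoE3 high-fat group has the highest median in each panel (2464.6, 574.5 and 1866.25), and for Meg3 all of its arrays lie above the rest.

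**Figure D3:**
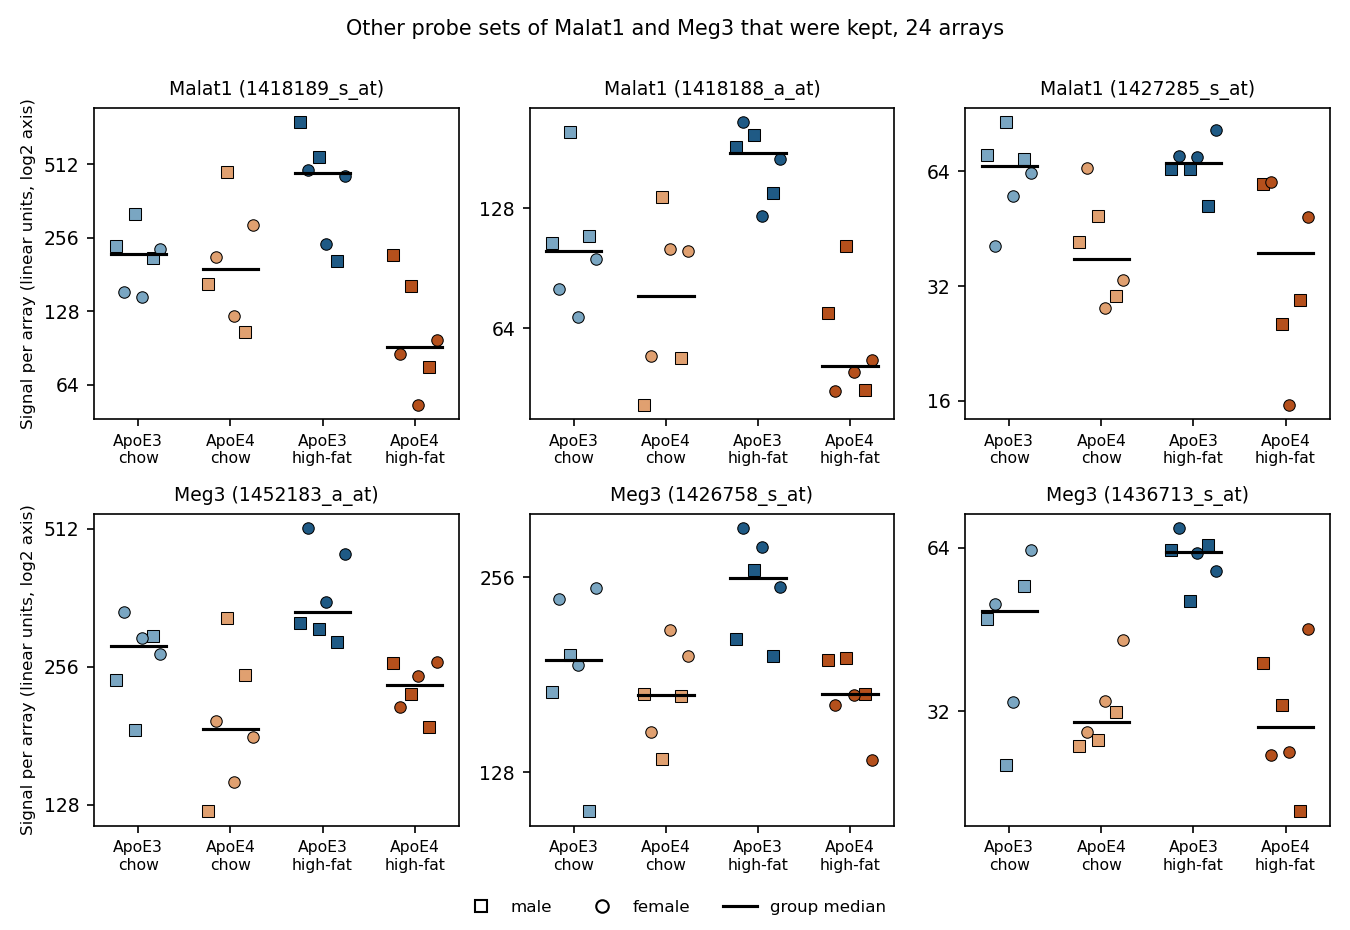
Signal per array (linear units on a log2 axis) of the other 3 Malat1 and 3 Meg3 probe sets that were kept, in the 4 groups of 6 arrays, with squares for males, circles for females and lines for group medians. The ApoE3 high-fat median is the highest in each panel.

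Ordered by mean log2 signal, all 9 probe sets kept had ApoE3 high-fat first. Second came ApoE3 chow for 8 of them, and ApoE4 chow for Neat1. Last came ApoE4 high-fat for 7, and ApoE4 chow for Meg3 1439380_x_at and 1452183_a_at. Neighbours in this order overlapped in all cases but one: ApoE3 high-fat and the next group did not overlap for Meg3 1439380_x_at.

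On the high-fat diet, ApoE4 was lower than ApoE3 for all 9 probe sets. On the scale of log2(signal + 16), used for every log2 value below, the difference from ApoE3 to ApoE4 was -1.06 ± 0.15 for Neat1 (SE, 6 arrays per group), or 2.08-fold lower. It was -1.34 ± 0.32 for Malat1 1438403_s_at (2.53-fold lower), -1.82 ± 0.34 for 1418189_s_at (3.54-fold), -1.30 ± 0.22 for 1418188_a_at (2.46-fold) and -0.64 ± 0.20 for 1427285_s_at. The last of these was Absent on 4 of 6 ApoE4 high-fat arrays, and the other 3 Malat1 probe sets ran from -1.82 to -1.30. For Meg3 it was -0.98 ± 0.15 for 1439380_x_at (1.98-fold lower), -0.63 ± 0.17 for 1452183_a_at, -0.51 ± 0.14 for 1426758_s_at and -0.71 ± 0.16 for 1436713_s_at. The genotypes did not overlap for 5 of the 9 probe sets, Malat1 1418188_a_at and the 4 of Meg3, where 4.94% of all 13936 probe sets kept were lower in ApoE4 without overlap and 3.58% higher. In counts added after the data were seen, among males alone 6 of 9 did not overlap (15.6% of all probe sets) and among females alone 9 of 9 (21.7%). Without the 4 arrays lowest in the hybridization controls 6 of 9 did not overlap (13.5% of all). Since these signals chose the members, nothing is read from the counts.

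On chow the genotypes overlapped for 9 of 9 probe sets, where 1.72% of all probe sets were lower and 1.54% higher in ApoE4 without overlap. Within a sex 2 of 9 were lower without overlap, Malat1 1438403_s_at and 1427285_s_at in males (16.7% of all) and Meg3 1439380_x_at and 1452183_a_at in females (8.9% of all). The difference was 0.06 ± 0.15 for Neat1. For Malat1 it was -0.43 ± 0.32 in 1438403_s_at, -0.39 ± 0.22 in 1418188_a_at and -0.05 ± 0.34 in 1418189_s_at. Malat1 1427285_s_at, Absent on 5 of 6 ApoE3 chow arrays, differed by -0.50 ± 0.20. For Meg3 it was -0.31 ± 0.15 in 1439380_x_at, -0.33 ± 0.16 in 1436713_s_at and -0.13 ± 0.14 in 1426758_s_at. No difference is given for Meg3 1452183_a_at, Absent on all 6 ApoE3 chow arrays. Its mean signal on chow was 271.9 ± 52.9 in ApoE3 and 202.5 ± 74.2 in ApoE4 (SD, n = 6). The chow differences given were smaller in size than the high-fat ones for each probe set. For Malat1 1427285_s_at they were close (-0.50 against -0.64). The Neat1 and 1418189_s_at values were smaller than their SE.

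In ApoE3 the high-fat diet went with higher signals, by 0.78 ± 0.15 for Neat1 (1.72-fold) and 0.81 ± 0.15 for Meg3 1439380_x_at (1.75-fold). Malat1 was higher by 0.92 ± 0.34 in 1418189_s_at, 0.62 ± 0.22 in 1418188_a_at and 0.40 ± 0.32 in 1438403_s_at. Malat1 1427285_s_at, Absent on 5 of 6 ApoE3 chow arrays, differed by 0.07 ± 0.20, less than its SE. Meg3 was higher by 0.38 ± 0.14 in 1426758_s_at and 0.36 ± 0.16 in 1436713_s_at. The diets did not overlap in ApoE3 for 1 of 9 probe sets, Meg3 1439380_x_at, where 0.696% of all probe sets were higher without overlap and 0.237% lower. Over the whole array 0.251% passed the test of this diet difference, and none in ApoE4 (0 of 13936, 0.0%, with 923 at an unadjusted p under 0.05).

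In ApoE4 the diet went the other way for Neat1 (-0.33 ± 0.15) and for 3 Malat1 probe sets, from -0.85 ± 0.34 in 1418189_s_at to -0.29 ± 0.22 in 1418188_a_at. Malat1 1427285_s_at differed by -0.08 ± 0.20, which turned to 0.13 without the 4 arrays lowest in the hybridization controls. For Meg3 the diet difference in ApoE4 was within its SE in 3 probe sets, from -0.02 ± 0.16 to 0.14 ± 0.15, and 0.24 ± 0.17 in 1452183_a_at. The diets overlapped in ApoE4 for 9 of 9 probe sets, where 0.0646% of all were higher and 0.1% lower without overlap. The genotype difference on the high-fat diet less that on chow was -1.12 ± 0.22 for Neat1, -0.91 ± 0.45 for Malat1 1438403_s_at, -1.77 ± 0.48 for Malat1 1418189_s_at and -0.67 ± 0.22 for Meg3 1439380_x_at. It was -0.91 ± 0.32 for Malat1 1418188_a_at, -0.39 ± 0.20 for Meg3 1426758_s_at and -0.38 ± 0.23 for Meg3 1436713_s_at. For Malat1 1427285_s_at, mostly Absent in ApoE3 chow, it was -0.15 ± 0.29 and turned to 0.06 without the 4 arrays. These comparisons share groups of arrays, so the values of a probe set are not separate observations. Over the whole array 0 of 13936 probe sets passed the interaction test (limma with Benjamini-Hochberg adjustment), with 1322 at an unadjusted p under 0.05.

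**Figure D4:**
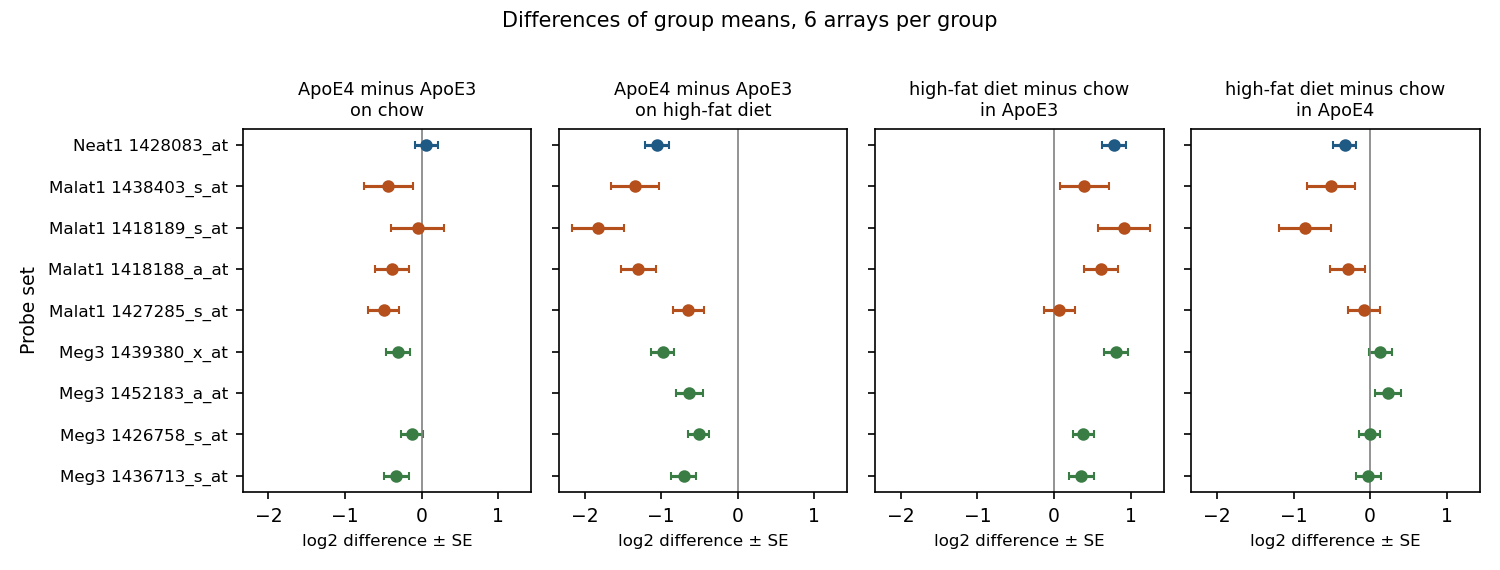
Differences of group means on the log2(signal + 16) scale with their SE (bars) for the 9 probe sets kept, in 4 comparisons of 6 against 6 arrays; colours mark Neat1, Malat1 and Meg3, and Meg3 1452183_a_at is not drawn against ApoE3 chow, where it was Absent on all 6 arrays. All 9 points lie below 0 for ApoE4 minus ApoE3 on the high-fat diet (-1.82 to -0.51), and for the diet in ApoE3 the 8 points run from 0.07 to 0.92.

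The marker means and the hybridization controls moved with these groups, so each was entered as a covariate. With the mean of the neuron, myelin and astrocyte markers in the fit, the genotype difference on the high-fat diet was -1.06 ± 0.23 for Neat1, -1.21 ± 0.47 for Malat1 1438403_s_at and -0.79 ± 0.22 for Meg3 1439380_x_at. Without the covariate the Neat1 value was -1.06 ± 0.15. The marker mean itself differed between these groups, at 8.44 ± 0.080 in ApoE3 high-fat and 8.10 ± 0.17 in ApoE4 high-fat (SD, n = 6). It is therefore confounded in part with genotype in this fit. The other Malat1 probe sets gave -1.79 ± 0.51 in 1418189_s_at, -1.24 ± 0.33 in 1418188_a_at and -0.71 ± 0.30 in 1427285_s_at. The other Meg3 probe sets gave -0.41 ± 0.25, -0.29 ± 0.20 and -0.46 ± 0.23, all closer to 0 than without the covariate. With the hybridization controls in the fit the 3 values were -0.92 ± 0.19, -1.65 ± 0.39 and -1.21 ± 0.18, and without the 4 arrays lowest in them -0.94 ± 0.19, -1.27 ± 0.33 and -1.02 ± 0.15. Malat1 1427285_s_at moved more, from -0.64 ± 0.20 to -0.40 ± 0.25 with the controls and to -0.37 ± 0.22 without those arrays. The other Malat1 probe sets gave -1.68 ± 0.44 and -1.51 ± 0.28 with the controls, and the other Meg3 probe sets -0.53 ± 0.22, -0.66 ± 0.17 and -0.78 ± 0.20. The part of the brain, macrophage and smooth muscle cell types in these differences was not tested.

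Sex is the comparison that the choice of members did not use. Neat1 was lower in females: the 12 female arrays ran from 881.1 to 2580.5 (median 1304.05) and the 12 male arrays from 1340.8 to 3565.3 (median 1584.85). Within groups the sexes overlapped in ApoE3 on both diets. In ApoE4 all 3 females lay below all 3 males on each diet, and the share of all probe sets that did so was not counted. The mean log2 signal was 10.41 in females and 10.89 in males, a difference of -0.48 ± 0.11 (SE), or 1.39-fold, with the female mean lower in 4 of 4 groups. It passed the test (limma, adjusted p = 0.0326), which 1.01% of all probe sets passed, 0.366% with lower signals in females. Without the 4 arrays lowest in the hybridization controls, all of them ApoE4 and 3 of them female, it was -0.38 ± 0.12 and did not pass (adjusted p = 0.227). It also did not pass in 11 of the 24 fits that left out 1 array (adjusted p 0.0519 to 0.0666): ApoE3 chow replicate 5, ApoE4 chow replicates 4 and 5, ApoE3 high-fat replicates 1, 2 and 5, and ApoE4 high-fat replicates 1, 2, 3, 5 and 6. In those 24 fits the difference stayed between -0.51 and -0.41.

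No probe set of Malat1 or Meg3 passed the test of sex. Malat1 1418189_s_at differed by -0.38 ± 0.24, with a lower female mean in 4 of 4 groups (limma, adjusted p = 0.514), and 1438403_s_at by -0.28 ± 0.22 (adjusted p = 0.619). The 4 Meg3 probe sets differed by 0.12 to 0.20, higher in females, with adjusted p from 0.381 to 0.702. Whether the sex difference of Neat1 is unlike that of Malat1 or Meg3 was not tested. The genotype and diet differences were also compared between the sexes, and no probe set of the array passed in either case (0 of 13936 each, with 536 and 700 at an unadjusted p under 0.05). The genotype difference of Meg3 1439380_x_at, averaged over the diets, was more negative in females by -0.63 ± 0.17 (unadjusted p = 0.00137, limma adjusted p = 0.999). For Neat1 it was more negative in females by -0.35 ± 0.21 (adjusted p = 0.999). The other probe sets ran from -0.51 ± 0.23 (Meg3 1452183_a_at) through -0.00 ± 0.24 (Meg3 1436713_s_at) to 0.24 ± 0.31 (Malat1 1418188_a_at), so the direction was not common to them.

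Array-to-array variation within the groups linked Neat1 with 1 of the Malat1 probe sets. For this, each array's log2 signal was taken as its deviation from the mean of its group and sex, over 24 arrays, and p-values came from 100000 permutations within group and sex, adjusted over 69 relations. Neat1 and Malat1 1418189_s_at deviated together (Pearson r = 0.81, permutation p = 0.00015, adjusted p = 0.0103; Spearman rho = 0.79, permutation p = 0.00028, adjusted p = 0.0193). The r was 0.75 without the 2 arrays farthest from the median, 0.85 in the ApoE3 arrays and 0.81 in the ApoE4 arrays. This was the 1 relation of 69 that passed. Neat1 and Malat1 1418188_a_at had r = 0.65 (permutation p = 0.0105, adjusted p = 0.188; rho = 0.58, permutation p = 0.0183, adjusted p = 0.253), and Neat1 and Malat1 1438403_s_at r = 0.23 (permutation p = 0.394, adjusted p = 0.697; rho = 0.26).

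Probe sets of one gene did not follow each other closely within the groups. The 6 pairs of Malat1 probe sets had r from -0.00 to 0.66 and the 6 pairs of Meg3 probe sets from -0.44 to 0.38, none of them past the adjusted threshold. Neat1 and Meg3 1439380_x_at had r = 0.08 (permutation p = 0.761, adjusted p = 0.964; rho = -0.01). Malat1 1438403_s_at and Meg3 1439380_x_at had r = 0.48 (permutation p = 0.0924, adjusted p = 0.484; rho = 0.41). The 33 relations of the 3 brightest probe sets with array measures and marker means had r from -0.53 to 0.50, and 0 of them passed after adjustment. For the neuron markers r was 0.00 with Neat1, 0.31 with Malat1 1438403_s_at and 0.04 with Meg3 1439380_x_at. The marker mean with the largest r was epithelial for Neat1 (0.50, permutation p = 0.0197, adjusted p = 0.235). It was that of macrophages for Malat1 1438403_s_at (0.46, permutation adjusted p = 0.484) and that of myelin for Meg3 1439380_x_at (0.43, permutation adjusted p = 0.532).

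**Figure D5:**
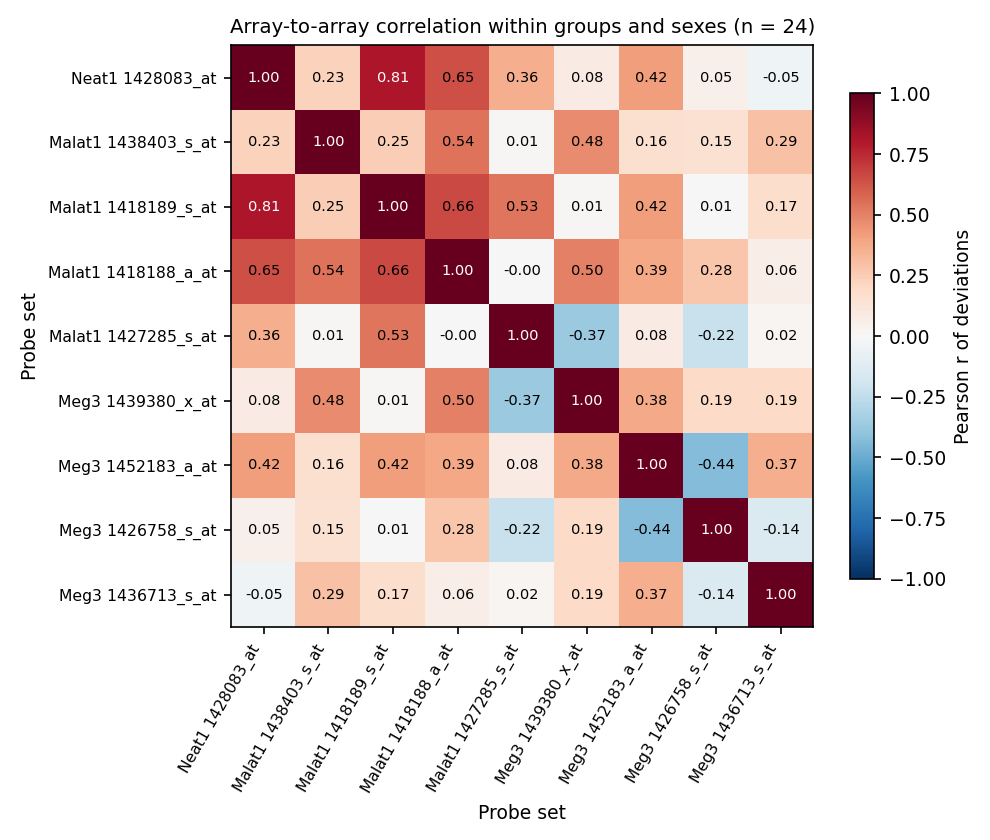
Pearson r between the 9 probe sets kept, from deviations of log2(signal + 16) from the mean of each group and sex over 24 arrays; red is positive and blue negative. Neat1 and Malat1 1418189_s_at have the highest r off the diagonal (0.81), and the 4 Meg3 probe sets have low or negative r with one another.

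The genes whose deviations were most like those of each RNA were listed by r over 24 arrays among 8260 other genes, as a description. For Neat1 they were Pabpn1, a nuclear poly(A)-binding protein (r = 0.80), Mad2l2 (0.80), the diacylglycerol kinase Dgkz (0.78), Tpra1 (0.78) and the guanine nucleotide exchange factor Dock6 (0.78). For Malat1 1438403_s_at they were the palmitoyltransferase Zdhhc7 (r = 0.82), Csnk2a1, a catalytic subunit of casein kinase (0.76), the lysosomal enzyme Idua (0.75), Pilrb1 (0.73) and Myo15b (0.72). For Meg3 1439380_x_at they were the cytokine gene Il17a (r = 0.79), the RNA-binding protein Bicc1 (0.77), the RNA demethylase Alkbh5 (0.74), the microtubule-binding protein Mapre3 (0.72) and the kinase Camk2b (0.72). These are the brightest probe sets only, each gene by its own brightest one, so the Malat1 probe set 1418189_s_at (r = 0.81 with Neat1) does not enter the order. The arrays share tissue and scaling.

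Proteins of paraspeckles and of nuclear speckles were taken from lists of 22 and 27 genes, of which 17 and 25 were measured. Of 17 paraspeckle proteins, 3 rose and 3 fell in ApoE4 on the high-fat diet (limma, adjusted p under 0.05, which 26.4% of all probe sets passed, 1444 higher and 2234 lower). Hnrnph3, an RNA-binding protein, fell by 0.61 ± 0.096 (adjusted p = 0.000102), Hnrnpul1, of the same class, fell by 0.42 ± 0.098 (adjusted p = 0.00348), and Zfp24, a zinc finger protein, rose by 0.28 ± 0.066 (adjusted p = 0.00367), with 1 more of its 3 other probe sets passing in that direction. The list's median difference was -0.11, against -0.06 for all probe sets. On chow 0 rose and 1 fell, Hnrnpul1, by 0.34 ± 0.098 (adjusted p = 0.0279; 10.2% of all probe sets passed), and this call was lost without any 1 of ApoE3 chow replicates 1, 2 and 6 or ApoE4 chow replicates 1, 2 and 4, with differences between -0.40 and -0.28 over all 24 such fits, and with the brain markers as a covariate (-0.30, adjusted p = 0.111). With that covariate 0 rose and 1 fell on the high-fat diet. Without ApoE4 high-fat replicate 4, 1 paraspeckle gene rose on the high-fat diet instead of 3.

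Of 25 nuclear speckle proteins, 1 rose and 8 fell in ApoE4 on the high-fat diet, and 0 passed on chow. Pnn, a speckle protein that binds splicing factors, fell by 0.53 ± 0.093 (adjusted p = 0.000312), and its other probe set differed by -0.16 without passing. Srrm2, a large scaffold protein of speckles, fell by 0.73 ± 0.19 (adjusted p = 0.00845), and the splicing regulator Tra2b rose by 0.22 ± 0.056 (adjusted p = 0.00647). The median difference of the list was -0.13 on this diet and 0.01 on chow, against -0.06 and -0.02 for all probe sets. The count that fell was 5 without ApoE3 high-fat replicate 1 or ApoE4 high-fat replicate 3, 4 without the 4 arrays lowest in the hybridization controls, and 1 with the brain markers as a covariate, when 0 rose. In that last fit 655 probe sets of the array passed in place of 3678. In the diet and sex comparisons 0 genes of either list passed (limma, adjusted p under 0.05).

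Of 15 genes listed from the region of chromosome 19 around Neat1 and Malat1, not an unbroken run of genes, 5 were measured, and 0 rose and 3 fell in ApoE4 on the high-fat diet. Rela, a subunit of NF-kB and 11 gene places from Malat1, fell by 0.49 ± 0.082 (adjusted p = 0.0002), the ubiquitin ligase gene Syvn1, 16 places away, fell by 0.35 ± 0.095 (adjusted p = 0.00861), and Frmd8, the 1 of the 3 that lies next to Neat1, fell by 0.27 ± 0.098 (adjusted p = 0.0428). Frmd8 did not pass in 9 of the 24 fits that left out 1 array. On chow only Rela passed, falling by 0.31 ± 0.082 (adjusted p = 0.0178), and with the brain markers as a covariate it differed by -0.29 and did not pass (adjusted p = 0.066). With that covariate 1 of the 5 fell on the high-fat diet. Around Meg3, 1 of 8 listed genes of the Dlk1-Dio3 region was measured: Dlk1, a paternally expressed gene of a transmembrane protein, had mean signals of 589.7 ± 182.8 and 586.9 ± 228.5 in ApoE3 and ApoE4 on the high-fat diet (SD, n = 6), a difference of -0.02 ± 0.22 (adjusted p = 0.956).

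Other long noncoding RNAs went in both directions. Of 53 listed, 13 were measured, and 4 of them rose and 2 fell in ApoE4 on the high-fat diet, with a median difference of 0.03 against -0.06 for all probe sets. Snhg6, a host gene of small nucleolar RNAs, rose by 0.48 ± 0.087 (adjusted p = 0.000434), Gas5, another such host gene, rose by 0.36 ± 0.071 (adjusted p = 0.000932) with 1 of its 3 other probe sets passing too, and Snhg11, a further host gene, fell by 0.67 ± 0.14 (adjusted p = 0.0011). The count that fell was 1 without ApoE3 high-fat replicate 1 or ApoE4 high-fat replicate 3 or 5. On chow 1 fell, Pvt1, by 0.57 ± 0.15 (adjusted p = 0.0198), a call that was lost without ApoE3 chow replicate 1 (-0.51) or ApoE4 chow replicate 4 (-0.52), and after quantile normalization (-0.38, adjusted p = 0.133). It was also lost when the hybridization controls (-0.53, adjusted p = 0.0539) or the Actb and Gapdh end ratio (-0.50, adjusted p = 0.0656) entered as a covariate. With the brain markers as a covariate 1 rose and 0 fell on the high-fat diet. With the diet 0 of these 13 passed in either genotype, and by sex 1 was higher and 1 lower.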

How the data were processed

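Signals were deposited as intensity values on a linear scale, made by the authors with GCOS 1.4 per the submitters' processing notes, and each array's trimmed mean was near 500.2. The other deposited table held the same signals in 544560 of 544560 cells, with detection calls. Its detection p-values, 42 of them above 1 as deposited, were not used. A genome build is not given in the sources used here.

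Log2(signal + 16) was fitted with limma 3.58.1 (R 4.3.3) over the 13936 probe sets Present on at least 6 of 24 arrays, with 4 group means and sex in 1 model, eBayes with trend and robust options, and Benjamini-Hochberg adjustment over all of them at 0.05. Sex interactions used 8 means of 3 arrays. The fit was tested on simulated data. Lists used 1 probe set per gene, that with the highest mean signal. Promoters were searched on both strands.

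The members and all lists were chosen with earlier results of these data known. Named were all member probe sets, the 5 genes of highest r with the brightest probe set of each member, and per list and genotype comparison the 3 genes of smallest p that passed.

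Same-numbered replicates of different groups had low r in their deviations (36 pairs, r -0.181 to 0.196, median 0.032, 6 above 0.1), and no pairing was used. Differently numbered arrays were not set beside them, so a shared batch was not tested. Alternatives varied the pseudocount, scaling, filter, sex term, array set, array weights, probe set choice, covariates and replicate block. Recounts of the lists under these alternatives were added after the data were seen.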

Additional observations from a re-analysis of the deposited data

Results flagged for a closer look

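The check covered 44 groups of 6 arrays, 11 probe sets in 4 groups each. In 3 of them an array stood apart from the rest by a gap of more than 0.625 of the group's range. Chance gives about 1 in 20, so 3 of 44 is near the chance share, and probe sets on the same arrays are not independent. Neat1 1428083_at read 2662.2 on ApoE4 chow replicate 2, a male array, and the next highest of that group was 1596.1. Malat1 1418188_a_at read 198.1 on ApoE3 chow replicate 2, with the next at 109. Meg3 1436713_s_at read 43.3 on ApoE4 chow replicate 6, an Absent call, with the next at 33.4. On ApoE4 chow replicate 2 the Malat1 probe sets 1418189_s_at and 1418188_a_at were also at the top of their group, at 476.1 and 136.7.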

How the results depend on the processing

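A member's difference by genotype or diet counted as moved when it shifted by more than the SD of 1 array, which is wider than its SE. By that measure none of 207 values for the brightest probe sets moved. For the others 1 did, beside 373 that did not: Meg3 1436713_s_at on the high-fat diet was -0.39 with a pseudocount of 64. Meg3 1426758_s_at went from -0.51 to -0.29 there with the brain markers as a covariate and did not count. Filter, probe set choice, sex term, replicate block and use of only the 12 arrays compared cannot shift these differences. Each probe set is fitted alone and the groups are balanced by sex and replicate number. Over the alternatives the high-fat genotype difference ran from -1.11 to -0.92 for Neat1, -1.65 to -1.14 for Malat1 1438403_s_at and -1.21 to -0.79 for Meg3 1439380_x_at. The sex difference of Neat1 was -0.38 without the 4 arrays lowest in the hybridization controls and -0.51 to -0.41 with 1 array left out. The correlations kept their side of the threshold with pseudocounts of 1 and 64 and after quantile normalization. The cause of the changes below was not tested.

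Counts of probe sets that passed moved more. For the diet in ApoE3, 35 became 5 with no filter, 15 with only the 12 arrays compared, 128 with array weights, 19 with 1 probe set per gene, 0 with the brain markers as a covariate, and 1 to 78 with 1 array left out. For the genotype on chow, 1428 became 908 with only the 12 arrays, 806 with 1 probe set per gene, 2331 with the hybridization controls as a covariate, 823 with the brain markers, and 800 to 1908 with 1 array left out. For the genotype on the high-fat diet, 3678 became 2300 with 1 probe set per gene and 655 with the brain markers. For the diet in ApoE4, 0 became 4 with the brain markers and 0 to 11 with 1 array left out. For sex, 141 became 65 without the 4 arrays. For the genotype difference between the sexes 0 became 1 with no filter, and for the diet difference between the sexes 0 to 1 with 1 array left out. The interaction count went from 0 to 4 without the 4 arrays.

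With the replicate number as a block, 2 probe sets passed the interaction test in place of 0. Every group holds each replicate number, so the block could not change any member's difference, only its error. The r between same-numbered arrays was low, and the block was not read as a pairing. Quantile normalization turned the split of higher and lower calls from 619 and 809 to 662 and 491 on chow, and from 1444 and 2234 to 1563 and 1247 on the high-fat diet, beside which the high-fat differences of the 3 brightest probe sets were -1.11, -1.24 and -1.02.

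Frmd8 lost its high-fat call without ApoE3 high-fat replicate 1, 2, 3, 4 or 5 or ApoE4 high-fat replicate 1, 4, 5 or 6 (-0.28 to -0.23), and also after quantile normalization (-0.13), with no filter or the replicate block (-0.27 in both), with the end ratio (-0.27), the hybridization controls (-0.23) or the brain markers (-0.23) as a covariate, and without the 4 arrays (-0.19). Detection set a limit: 1427285_s_at, 1452183_a_at and the 2 probe sets left out were Absent on most arrays. Of these, Meg3 1452183_a_at had a mean signal of 269.7. The dimmest probe set kept, Meg3 1436713_s_at, had a mean signal of 42.9.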
